A study of Mus musculus with 9 samples.

Results

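The sebaceous gland lipid genes described here were 10 genes chosen by symbol: Scd1, Scd3, Elovl3, Awat1, Awat2, Dgat2l6, Far2, Soat1, Fads6 and Mgst1. Each symbol matched 1 row among the 52550 genes of the count table, and all 10 genes were among the 22430 genes with enough reads to be tested. Dermis was taken from the ears of wild-type (labelled "wide type") C57BL/6 (C57BL/6J in the methods) mice aged 8 weeks, with 3 RNA-seq libraries in each of 3 groups. Control mice (VAS+H2O) received vaseline for 5 days and ddH2O by gavage for 10 days. Model mice (IMQ+H2O) received imiquimod cream, a Toll-like receptor agonist that induces psoriasis-like inflammation, for the same 5 days with ddH2O. Treated mice (IMQ+XYF) received imiquimod cream on the same 5 days, which by the methods were the last 5 of the 10 gavage days. They were given 200 µl of Xiao-Yin-Fang (XYF), a herbal decoction, at 23.3 mg/g once daily for those 10 days, starting before imiquimod. A legend for the ear experiment gives gavage 2 times daily instead, and which applied here is not settled. Dermal sheets were peeled from dispase-treated ears, and RNA was prepared from the sheets of 2 mice. No statement says whether this was per library or per group. The legend of the sequencing figure gives n = 3 for each group, without saying whether mice or libraries were counted. The p-values below therefore measure the spread between libraries, which may be partly technical.

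Sebaceous glands open into the hair canal and release sebum when whole lipid-filled cells break down. Sebum of the mouse is rich in wax esters, sterol esters and triglycerides. Its synthesis starts from acyl-CoA that is desaturated (Scd1, Scd3) and elongated (Elovl3), partly reduced to fatty alcohol (Far2), and joined to alcohols, glycerol backbones or cholesterol by acyltransferases (Awat1, Awat2, Dgat2l6, Soat1). Fads6 belongs to the fatty acid desaturase family, and Mgst1 is a membrane-bound glutathione transferase.

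Of the 10 genes, the members of the DGAT2 family lay together on chromosome X, and Scd1, Scd3 and Elovl3 on chromosome 19 (GRCm38, GENCODE models). Awat2 (chrX:100402221-100442717), Dgat2l6 (chrX:100524838-100546144) and Awat1 (chrX:100572251-100578205) are neighbouring members of the acyltransferase family named after DGAT2. Scd3 (chr19:44203269-44244016) and Scd1 (chr19:44394455-44407879) stand on opposite strands, with Elovl3 at chr19:46131897-46135694. Far2 (chr6:148047259-148182758) and Mgst1 (chr6:138140316-138156755) share chromosome 6, while Soat1 lies at chr1:156424525-156474331 and Fads6 at chr11:115279622-115297663. All 10 are annotated as protein coding.

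The sequences matter first for the 2 desaturases, because their reads can be mistaken for each other and for those of Scd2 and Scd4. Among exact windows of 50 bases of the Scd3 transcripts, 4.77% also occurred in Scd1 transcripts, and 2.49% of windows of 100 bases did. Of the windows of 50 bases of Scd3, 3.89% occurred in Scd2 and 1.94% in Scd4. Of those of Scd1, 2.97% occurred in Scd2 and 1.72% in Scd4. The longest identical stretch of the coding sequences was 185 bases, from coding base 463 to 647 in Scd1 and from 475 to 659 in Scd3. It spanned the junction of exons 4 and 5 in both genes, at chr19:44401693-44401865 and chr19:44400363-44400374 on the minus strand for Scd1, and at chr19:44235804-44235976 and chr19:44238376-44238387 on the plus strand for Scd3. It is shown because a read lying wholly inside it cannot be assigned to either gene.
Scd1 and Scd3: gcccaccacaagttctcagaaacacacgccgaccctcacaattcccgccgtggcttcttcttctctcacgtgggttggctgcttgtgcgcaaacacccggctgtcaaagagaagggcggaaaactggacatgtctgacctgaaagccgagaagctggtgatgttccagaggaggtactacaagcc
No window of 50 bases was shared between the tested pairs of the DGAT2 family, between the fatty acyl reductases or between the sterol acyltransferases.

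The 4 acyltransferases that finish the wax and sterol esters are shown next, as the 250 bases before the RefSeq start in GRCm38.p6, printed in the direction of the gene. Capitals mark CCAAT, the letters bound by the factor NF-Y, searched on both strands.
Soat1, chr1:156474329-156474578, minus strand: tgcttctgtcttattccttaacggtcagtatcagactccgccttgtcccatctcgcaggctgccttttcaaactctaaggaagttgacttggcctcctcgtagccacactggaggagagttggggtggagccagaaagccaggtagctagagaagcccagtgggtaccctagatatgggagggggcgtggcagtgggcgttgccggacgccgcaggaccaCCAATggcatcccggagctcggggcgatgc
Awat2, chrX:100442718-100442967, minus strand: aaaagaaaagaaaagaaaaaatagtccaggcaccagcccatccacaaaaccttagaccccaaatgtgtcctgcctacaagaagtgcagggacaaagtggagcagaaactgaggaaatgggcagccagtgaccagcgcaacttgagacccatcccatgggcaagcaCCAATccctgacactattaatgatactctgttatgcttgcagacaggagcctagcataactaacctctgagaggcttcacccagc
Dgat2l6, chrX:100524588-100524837, plus strand: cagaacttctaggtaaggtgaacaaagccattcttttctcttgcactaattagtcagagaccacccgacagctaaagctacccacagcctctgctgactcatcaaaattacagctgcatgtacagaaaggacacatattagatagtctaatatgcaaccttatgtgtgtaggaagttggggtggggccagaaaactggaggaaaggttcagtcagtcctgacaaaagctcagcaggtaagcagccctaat
Awat1, chrX:100571997-100572246, plus strand: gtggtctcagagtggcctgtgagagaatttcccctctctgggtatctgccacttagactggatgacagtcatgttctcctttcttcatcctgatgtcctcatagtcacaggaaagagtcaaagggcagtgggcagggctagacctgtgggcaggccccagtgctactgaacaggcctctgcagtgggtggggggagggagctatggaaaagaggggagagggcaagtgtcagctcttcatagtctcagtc
CCAAT lay 26 to 30 bases before the start of Soat1 and 81 to 85 bases before this start of Awat2, and a further start of Awat2 held its reverse complement. It was absent from the windows shown for Dgat2l6 and Awat1. Of 32851 promoters in the RefSeq table, 33.8% held CCAAT in the same window. The sterol regulatory element searched as TCACNCCAC was in none of the windows of the 8 genes with a promoter in the table, against 1.05% of all promoters. Scd1 and Elovl3 had no entry.

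The libraries held 28756305 to 79836881 counts. Values are CPM (counts scaled to a common library total) after TMM scaling, a correction for library composition, and a gene was called when the adjusted p was at most 0.05 and the change at least 1 on the log2 scale, that is at least 2-fold. Each gene was tested by quasi-likelihood in edgeR, its p adjusted by the Benjamini-Hochberg method over all 22430 genes, and values after ± are SDs of 3 libraries unless named SE. Sebocyte markers were present in every library. The 9 genes summed to 2556 to 3268 CPM in VAS+H2O, 2567 to 3212 in IMQ+H2O and 2007 to 2908 in IMQ+XYF. Krt79, a keratin of the gland duct, measured 558 ± 137 CPM in VAS+H2O, 483 ± 92.5 CPM in IMQ+H2O and 482 ± 65.0 CPM in IMQ+XYF. Markers of other tissues were present too, at summed levels of 2093 to 14530 CPM for 10 epidermal genes, 154 to 3271 CPM for 12 skeletal muscle genes, 602 to 4525 CPM for 15 cartilage genes and 901 to 1718 CPM for 13 adipocyte genes. Matn1, a cartilage matrix gene, stayed under 0.1 CPM. The library with 14530 CPM of epidermal genes was IMQ+XYF replicate 1, and the next highest held 6525 CPM.

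Levels between genes are compared per kb of exon. In VAS+H2O, Scd1 stood first at 2046 ± 450 CPM per kb. Mgst1 (124 ± 10.4), Elovl3 (123 ± 24.6) and Far2 (96.2 ± 19.4 CPM per kb) came next and did not differ beyond their spread. Awat1 followed at 54.4 ± 22.3 CPM per kb, Soat1 at 33.8 ± 6.67 and Scd3 at 10.8 ± 3.03. Fads6 (2.76 ± 0.412), Dgat2l6 (2.38 ± 1.32) and Awat2 (2.17 ± 0.676 CPM per kb) were lowest and overlapped one another. Scd1 alone made up 84.8% to 86.1% of the summed CPM of the 10 genes in VAS+H2O.

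**Figure D1:**
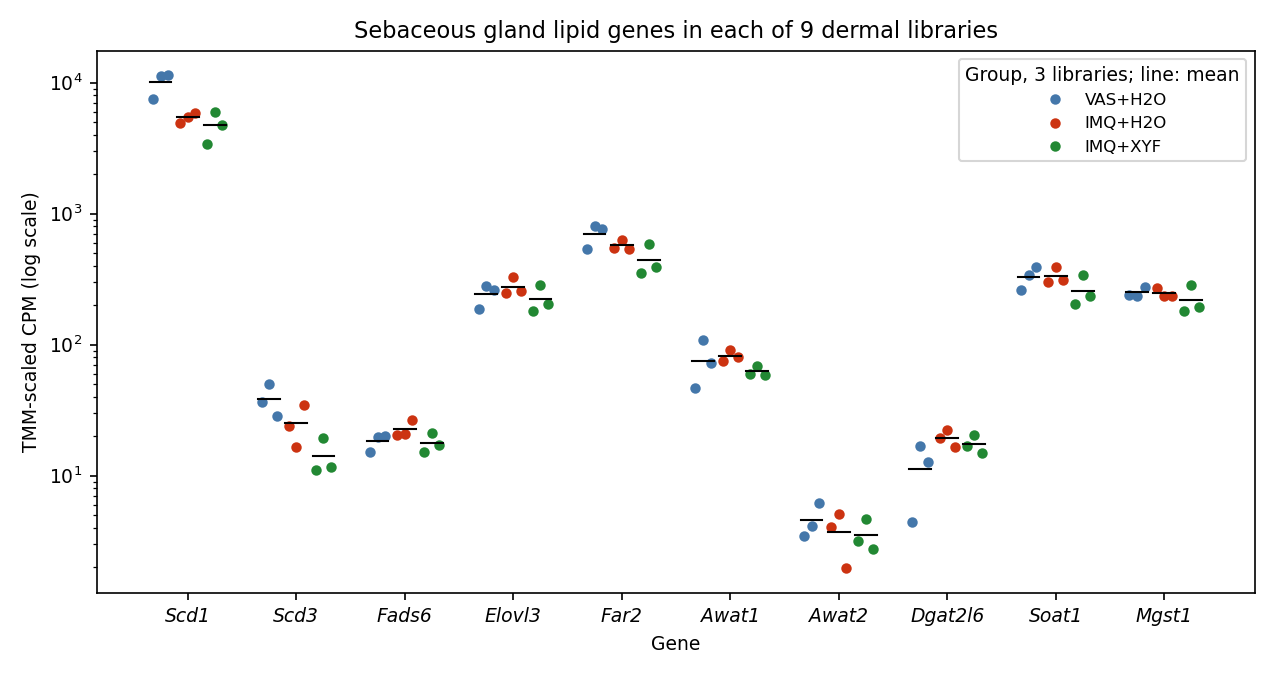
Level of each of the 10 genes in each library, as TMM-scaled CPM on a log axis, with 3 points per group (VAS+H2O blue, IMQ+H2O red, IMQ+XYF green) and a line at the group mean. The VAS+H2O points of Scd1 lie above all 6 other libraries, whereas those of Elovl3, Soat1 and Mgst1 overlap the other groups.

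The first comparison, IMQ+H2O against VAS+H2O, asks what imiquimod changed. Scd1 was the gland gene with the largest difference, at 1.85-fold less. Elovl3, Awat1, Soat1 and Mgst1 differed little between the group means, and Dgat2l6 was 1.72-fold higher without passing the test. None of the 10 genes was called by edgeR, against 0.994% of all genes tested, nor was any by DESeq2. Of the 10, 1 had an unadjusted p under 0.05, against 20.9% of all genes. By fitted change 5 of the 10 were higher and 5 lower, with a median log2 fold change of -0.003 against -0.023 for all genes. In bulk dermis, fewer gland cells and less RNA per cell cannot be told apart.

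Scd1, the stearoyl-CoA desaturase that makes oleate and palmitoleate, measured 7466, 11223 and 11332 CPM in the VAS+H2O libraries. The IMQ+H2O libraries held 4907, 5465 and 5864 CPM, all below the lowest control. The log2 fold change was -0.89 (SE 0.24), with an unadjusted p of 0.00475 and an adjusted p of 0.0952 by edgeR. By DESeq2 the adjusted p was 0.00869 and the log2 fold change -0.865, which missed the fold limit. Libraries of the groups did not overlap for 31.5% of all genes, and 20.9% of all genes had an unadjusted p under 0.05, so such separation was common in this comparison. Scd1 ranked 8, 3 and 3 among all genes by counts in the controls and 16, 13 and 16 in IMQ+H2O.

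Scd3, the neighbouring desaturase gene, measured 36.7, 50 and 28.6 CPM in VAS+H2O and 23.8, 16.7 and 34.6 CPM in IMQ+H2O. These groups overlapped, and the log2 fold change of -0.62 (SE 0.32) had an adjusted p of 0.307. Its CPM was 0.245% to 0.589% of that of Scd1 over the 9 libraries, and the shared stretch printed above bears on this small share. Fads6 measured 15.2, 19.7 and 20.2 CPM in VAS+H2O against 20.3, 20.8 and 26.5 CPM in IMQ+H2O, a narrow separation upward with a log2 fold change of 0.30 (SE 0.175) and an adjusted p of 0.363.

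Elovl3, the elongase of saturated and monounsaturated long-chain acyl-CoA, measured 188, 280 and 261 CPM in VAS+H2O and 247, 327 and 257 CPM in IMQ+H2O. Its log2 fold change was 0.19 (SE 0.21), with an adjusted p of 0.64. Far2, which reduces acyl-CoA to the fatty alcohols of wax esters, measured 541, 804 and 766 CPM against 551, 630 and 540 CPM, overlapping at the low end with a log2 fold change of -0.295 (SE 0.215). Of the exon bases of Far2, 11.4% overlap Ergic2 on the opposite strand. Whether the counting used strand is not given in the sources used here, so reads there may belong to either gene.

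Awat1, a wax synthase, measured 46.5, 108 and 72.2 CPM in VAS+H2O and 74.8, 91.3 and 79.9 CPM in IMQ+H2O, the latter within the range of the controls. Awat2, the related wax synthase, was scarce, with 3.44, 4.17 and 6.22 CPM against 4.06, 5.14 and 1.97 CPM. Dgat2l6, whose product also transfers acyl groups, measured 4.46, 16.8 and 12.7 CPM in VAS+H2O and 19.3, 22.3 and 16.6 CPM in IMQ+H2O. The groups of Dgat2l6 overlapped by a small margin, and its log2 fold change of 0.78 (SE 0.395; adjusted p = 0.294) leaned on VAS+H2O replicate 1. Without that library the change was 0.40.

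Soat1, which esterifies cholesterol, measured 261, 341 and 390 CPM in VAS+H2O and 300, 392 and 309 CPM in IMQ+H2O, with a log2 fold change of 0.01 (SE 0.22). Mgst1 measured 239, 237 and 274 CPM against 272, 236 and 234 CPM, with a log2 fold change of -0.02 (SE 0.175). Neither gene showed a difference larger than the spread of its libraries.

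**Figure D2:**
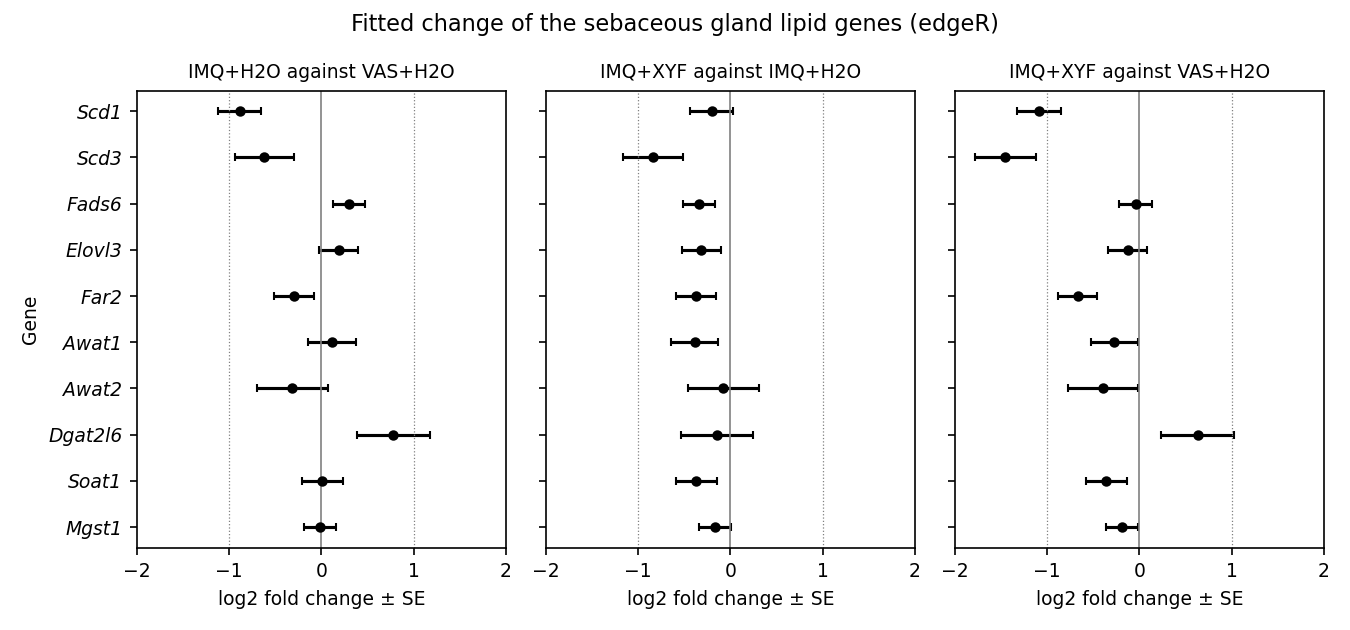
Fitted log2 fold change of each gene in the 3 comparisons, with bars of 1 SE from edgeR and dotted lines at the fold limit of 1. Scd1 has -0.89 in IMQ+H2O against VAS+H2O and -1.09 in IMQ+XYF against VAS+H2O, while in IMQ+XYF against IMQ+H2O all 10 points lie left of 0.

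Set against the other gland genes of the same library, the lower Scd1 stood out. The ratio of Scd1 CPM to the summed CPM of the other 9 genes was 5.59, 6.03 and 6.19 in VAS+H2O. It was 3.24, 3.14 and 3.91 in IMQ+H2O and 3.33, 3.64 and 4.24 in IMQ+XYF. Every control library lay above every imiquimod library, and the 2 imiquimod groups overlapped. The ratio does not depend on how libraries are scaled, was chosen after the values were seen, and carries no test. With Elovl3 alone below the line, the ratio was 39.7 to 43.4 in VAS+H2O, 16.7 to 22.8 in IMQ+H2O and 18.8 to 23.5 in IMQ+XYF. With Soat1 it was 28.6 to 32.9, 13.9 to 19.0 and 16.8 to 20.3 in the same order, and with Far2 it was 13.8 to 14.8, 8.67 to 10.9 and 9.64 to 12.3. The summed CPM of the 9 genes without Scd1 was 1336, 1861 and 1832 in VAS+H2O, 1513, 1741 and 1499 in IMQ+H2O, and 1027, 1625 and 1127 in IMQ+XYF. Adipocytes also use Scd1, and their part in its values was not tested. The summed CPM of the 13 adipocyte genes was 918 to 1586 in VAS+H2O, 1677 to 1718 in IMQ+H2O and 901 to 1394 in IMQ+XYF, and Adipoq, the adipokine gene of mature fat cells, measured 26.6 ± 10.1, 24.8 ± 9.44 and 26.4 ± 12.7 CPM.

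**Figure D3:**
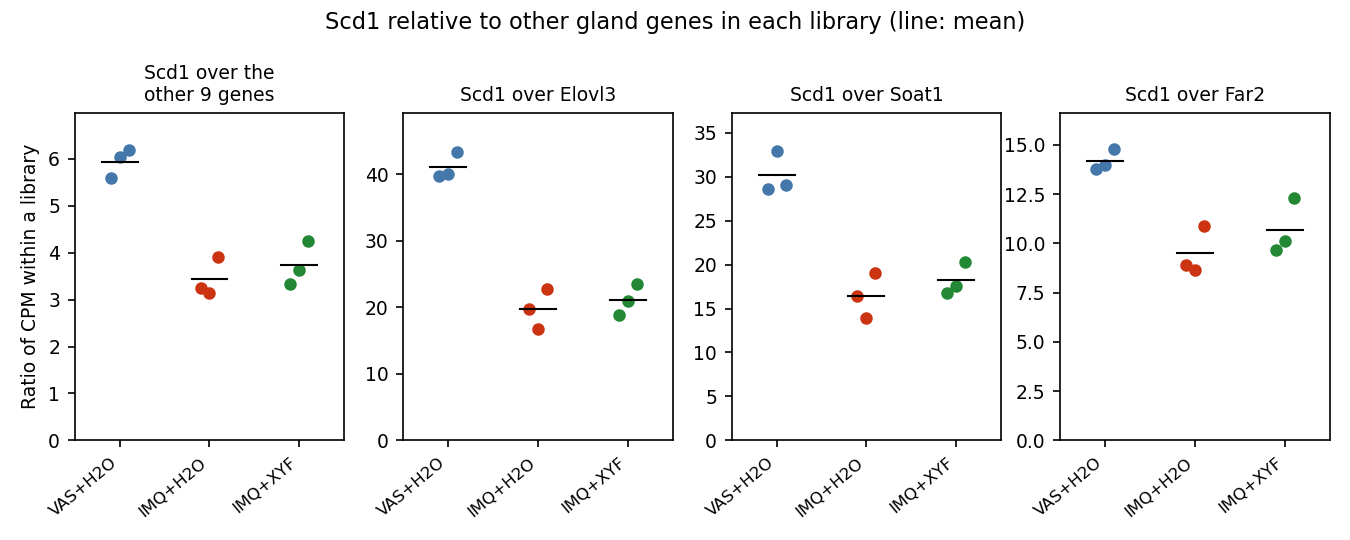
Ratio of Scd1 CPM to the summed CPM of the other 9 genes, and to Elovl3, Soat1 and Far2, in each library, with a line at the group mean and all axes starting at 0. In each panel the 3 VAS+H2O libraries lie above the 6 libraries given imiquimod.

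Other enzymes of acyl-CoA and lipid synthesis give the setting for Scd1. All 10 genes of the fatty acid synthesis list had a negative fitted change with imiquimod, with a median log2 fold change of -0.453. None was called by edgeR and 1 by DESeq2, and 6 of the 10 had an unadjusted p under 0.05, against 20.9% of all genes. Fasn, the fatty acid synthase, measured 626, 801 and 957 CPM in VAS+H2O and 490, 564 and 532 CPM in IMQ+H2O (log2 fold change -0.59, SE 0.21; adjusted p = 0.171 by edgeR). Thrsp, a regulator of lipogenesis, had the largest difference of that list, from 13.0 ± 2.77 to 5.32 ± 0.967 CPM (adjusted p = 0.0731). Scd2, the desaturase of many tissues outside the gland, measured 415, 376 and 558 CPM against 279, 269 and 307 CPM (log2 fold change -0.66, SE 0.16; adjusted p = 0.0817). In the list of desaturation and elongation, 9 of 12 genes were lower and 3 higher. None was called by edgeR or DESeq2 and 5 had an unadjusted p under 0.05. Scd4 differed most, at 2.21 ± 1.19 against 1.02 ± 0.37 CPM.

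Of the 12 tested genes of wax, triglyceride and sterol ester assembly outside the 10, Dgat2 alone was called. Dgat2, which adds the last acyl chain of triglycerides, measured 127, 111 and 137 CPM in VAS+H2O and 53.6, 50.2 and 54.5 CPM in IMQ+H2O. It fell by 1.24 on the log2 scale (SE 0.15; adjusted p = 0.0161 by edgeR). The call was lost without VAS+H2O replicate 3 (adjusted p = 0.0707), IMQ+H2O replicate 2 (0.0668) or IMQ+H2O replicate 3 (0.0631), with changes of -1.17, -1.21 and -1.25. Among the 19 genes of cholesterol synthesis, 17 had a negative and 2 a positive fitted change, with a median of -0.222. None was called by either tool and 2 had an unadjusted p under 0.05, against 20.9% of all genes. Tm7sf2, a sterol reductase, differed most, at 12.6 ± 3.12 against 7.76 ± 0.713 CPM. Of 14 regulators, 12 had a negative fitted change, 7 an unadjusted p under 0.05, and none was called by either tool.

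Srebf1, the regulator of lipogenic enzymes, measured 295, 187 and 242 CPM in VAS+H2O and 130, 143 and 137 CPM in IMQ+H2O. The groups did not overlap, with a log2 fold change of -0.82 (SE 0.22) and an adjusted p of 0.0944 by edgeR. Pparg, the nuclear receptor of sebocyte and adipocyte differentiation, stood at 48.2 ± 4.82 and 44.2 ± 2.40 CPM. Gata6, a factor of the upper gland and duct, had the largest difference of the regulators, at 6.35 ± 2.10 against 3.18 ± 0.359 CPM (adjusted p = 0.14). Of the 9 sebocyte markers none was called by either tool, and 4 had an unadjusted p under 0.05, against 20.9% of all genes. Mc5r, a melanocortin receptor of sebocytes, measured 8.36 ± 2.29 and 4.35 ± 1.40 CPM (adjusted p = 0.173), and Plin5, a lipid droplet coat protein, 2.10 ± 0.619 and 4.35 ± 1.94 CPM.

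**Figure D4:**
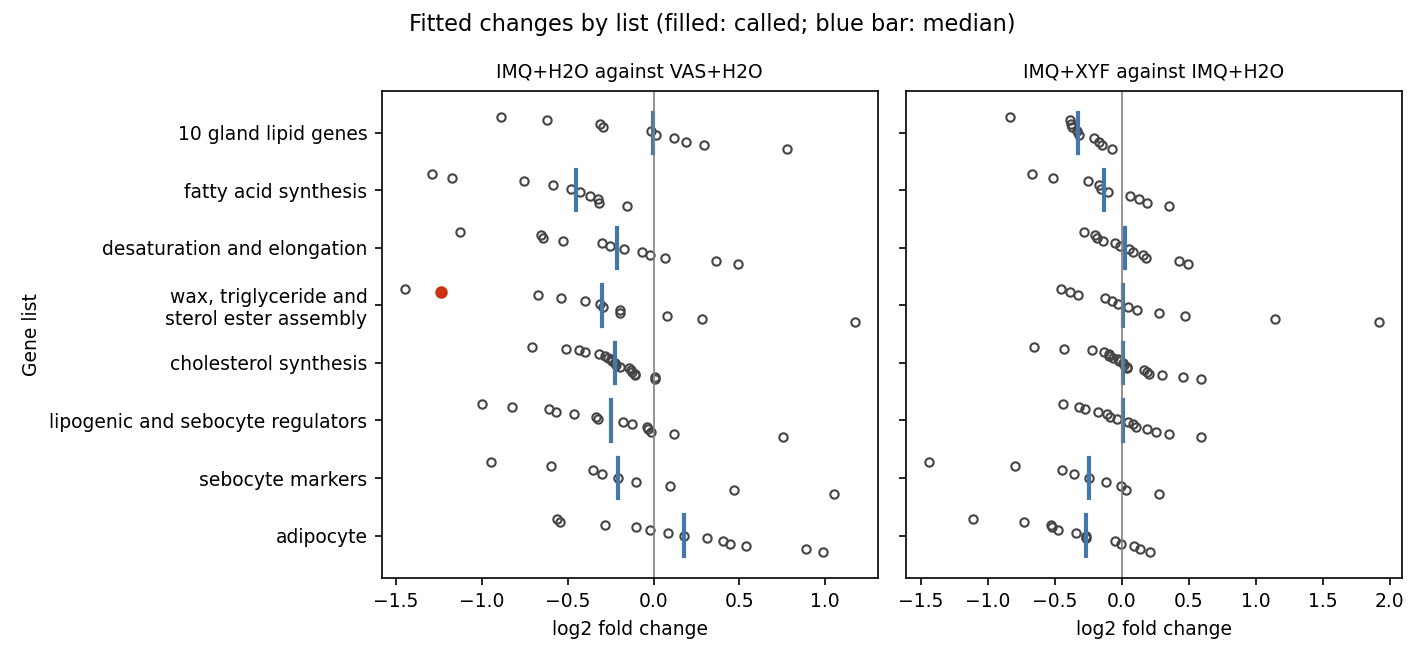
Fitted log2 fold changes of the 10 gland lipid genes and of the lists of lipid synthesis, regulators, sebocyte markers and adipocyte genes, with 1 point per gene, filled where called, and a blue bar at the list's median. With imiquimod, Dgat2 is the only filled point among these lists and the median of fatty acid synthesis is -0.453, while the median of the 10 genes is -0.003.

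Hair follicle genes moved with the same comparison, and their part in the gland values was not tested. Of 16 hair follicle genes, 9 were called lower with imiquimod: the inner sheath keratin gene Krt27, the hair shaft keratin genes Krt31, Krt33a, Krt33b, Krt34, Krt35, Krt81 and Krt86, and the transcription factor gene Msx2. The count was 0 without any 1 of the IMQ+H2O libraries and 1 to 4 without any 1 of the VAS+H2O libraries. The summed CPM of the 16 genes was 104 to 361 in VAS+H2O and 9.09 to 33.1 in IMQ+H2O. Col2a1, Col9a3 and Matn3, of cartilage matrix, were also called lower, within a cartilage sum of 2066 to 4525 CPM in VAS+H2O and 602 to 1061 CPM in IMQ+H2O. None of these 3 was called without any 1 of the VAS+H2O or IMQ+H2O libraries.

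The second comparison, IMQ+XYF against IMQ+H2O, asks what XYF changed in imiquimod-treated dermis. All 10 genes had a negative fitted change, with a median log2 fold change of -0.326 against 0.005 for all genes, but none was called by edgeR or DESeq2. Among all genes 0.00892% were called. Scd3 was the gene with the largest difference and the only one of the 10 with an unadjusted p under 0.05, against 11.7% of all genes. Awat1 was the only one whose libraries did not overlap, against 18.0% of all genes. The fitted change was also negative in 7 of 9 sebocyte markers (median -0.242) and in all 10 macrophage genes (-0.581). So it was in all 8 mast cell genes (-0.624) and all 12 skeletal muscle genes (-1.711). Of 13 adipocyte genes 10 were lower (-0.266), and of 6 fibroblast genes 4 were lower (-0.099). The fitted change was positive in 8 of 10 epidermal genes (1.452) and in all 14 tested cartilage genes (1.503). The lipid synthesis and regulator lists held both directions. The comparison shares the IMQ+H2O libraries with the first.

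Scd3 measured 11.1, 19.3 and 11.7 CPM in IMQ+XYF, against the 23.8, 16.7 and 34.6 CPM of IMQ+H2O given above. The highest IMQ+XYF library lay above the lowest IMQ+H2O library, and the log2 fold change was -0.83 (SE 0.325; unadjusted p = 0.0308, adjusted p = 0.395 by edgeR). Scd1 measured 3415, 5911 and 4778 CPM in IMQ+XYF, spanning the whole range of IMQ+H2O, with a log2 fold change of -0.20 (SE 0.235). Fads6 measured 15.2, 21.0 and 17.3 CPM (log2 fold change -0.34, SE 0.175; adjusted p = 0.477).

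Elovl3 measured 182, 283 and 203 CPM in IMQ+XYF (log2 fold change -0.315, SE 0.21) and Far2 354, 584 and 389 CPM (-0.375, SE 0.215). Soat1 measured 203, 337 and 235 CPM (-0.37, SE 0.22) and Mgst1 181, 287 and 193 CPM (-0.17, SE 0.175). In these 4 genes, as in Scd1, replicate 2 was the highest of the IMQ+XYF libraries and lay within or above the IMQ+H2O range. Replicates 1 and 3 both lay below that range, with replicate 1 the lowest. Awat1 measured 59.9, 69.2 and 59.0 CPM, all below the lowest IMQ+H2O library at 74.8 CPM, with a log2 fold change of -0.39 (SE 0.26; adjusted p = 0.559). Awat2 (3.20, 4.66 and 2.74 CPM) and Dgat2l6 (17.0, 20.6 and 14.9 CPM) had the smallest changes, -0.08 (SE 0.38) and -0.15 (SE 0.39).

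Markers of other tissues also differed between the IMQ+XYF libraries. Scd1, Elovl3, Far2, Soat1 and Mgst1 lay below IMQ+H2O in both replicates 1 and 3. In IMQ+XYF the summed CPM of epidermal genes was 14530, 3748 and 4894 in replicates 1 to 3. That of skeletal muscle genes was 154, 1099 and 751, that of cartilage genes 1243, 3444 and 1784, and that of adipocyte genes 1394, 901 and 1254. Replicate 1 was the lowest of its group in 7 of the 10 gland genes. It was highest in epidermal and adipocyte markers and lowest in muscle and cartilage markers. Without IMQ+XYF replicate 1 the log2 fold change was -0.02 for Scd1, -0.69 for Scd3, -0.18 for Elovl3, -0.24 for Far2 and -0.22 for Soat1. Over all alternative fits it ran from -0.375 to -0.017 for Scd1, -1.106 to -0.51 for Scd3 and -0.496 to -0.176 for Elovl3. For Far2 it ran from -0.598 to -0.236 and for Soat1 from -0.579 to -0.222. The part of the epidermal, muscle, cartilage and adipocyte markers in the gland values was not tested. Krt10, an epidermal keratin gene, measured 714 ± 186 CPM in IMQ+H2O and 2954 ± 2794 CPM in IMQ+XYF, and Myh1, a muscle myosin gene, 960 ± 380 and 203 ± 148 CPM. Neither was called.

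Dgat2 was higher with XYF, unlike the 10 genes. It measured 98.4, 143 and 109 CPM in IMQ+XYF, all above the IMQ+H2O libraries, with a log2 fold change of 1.15 (SE 0.15) and an adjusted p of 0.154 by edgeR, so it was not called. By DESeq2 it was called, at an adjusted p of 3.43e-08. Srebf1 measured 149, 260 and 209 CPM, also all above IMQ+H2O (log2 fold change 0.60, SE 0.22; adjusted p = 0.382). Since both comparisons use the same IMQ+H2O libraries, low values there move both in opposite directions. Fasn (579 ± 159 CPM), Scd2 (319 ± 39.2 CPM) and Pparg (45.7 ± 12.0 CPM) overlapped IMQ+H2O. None of the lipid, regulator or sebocyte lists held a gene called by edgeR in this comparison. Each list had 0 to 4 genes at an unadjusted p under 0.05, against 11.7% of all genes. By DESeq2, 1 sebocyte marker was called besides Dgat2. Their largest differences were those of Acacb (189 ± 21.3 to 119 ± 40.3 CPM), Fads2 (18.1 ± 2.60 to 25.6 ± 9.56 CPM), Mogat1 (1.57 ± 1.52 to 5.84 ± 3.80 CPM), Msmo1 (275 ± 40.1 to 175 ± 34.4 CPM) and Plin5 (4.35 ± 1.94 to 1.60 ± 0.571 CPM).

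The third comparison, IMQ+XYF against VAS+H2O, sets treated against control dermis and shares libraries with both others. Here the 2 stearoyl-CoA desaturases of the gland had the largest differences, 2.13-fold less for Scd1 and 2.74-fold less for Scd3, and neither was called. Of all genes, 1.20% were called. The fitted change was negative in 9 of the 10 genes and positive in Dgat2l6, with a median of -0.314 against -0.024 for all genes.

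The highest IMQ+XYF library of Scd1, at 5911 CPM, lay below the lowest control at 7466 CPM. Its log2 fold change was -1.09 (SE 0.24), with an unadjusted p of 0.00139 and an adjusted p of 0.0561 by edgeR. For Scd3 the highest IMQ+XYF library, at 19.3 CPM, lay below the lowest control at 28.6 CPM, with a log2 fold change of -1.45 (SE 0.33), an unadjusted p of 0.00176 and an adjusted p of 0.0629. Libraries did not overlap for 22.1% of all genes. By DESeq2, which called 701 genes in this comparison, both were called, with adjusted p-values of 0.000464 for Scd1 and 0.00111 for Scd3. Both were also called without IMQ+XYF replicate 2, the IMQ+XYF library with most Scd1, at 0.0231 and 0.0296 by edgeR. Neither was called without any 1 of the other libraries. Over the edgeR alternatives the adjusted p reached 0.172 for Scd1 and 0.18 for Scd3.

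Far2, with a log2 fold change of -0.67 (SE 0.22; unadjusted p = 0.013, adjusted p = 0.145), was the remaining gene of the 10 with an unadjusted p under 0.05, against 18.3% of all genes. Its IMQ+XYF libraries overlapped the controls. The other 7 genes had adjusted p-values of at least 0.439, and Dgat2l6 had a log2 fold change of 0.63 (SE 0.39). Thrsp was the lipid gene called in this comparison, at 13.0 ± 2.77 and 3.71 ± 1.35 CPM (log2 fold change -1.81, SE 0.31; adjusted p = 0.0333 by edgeR). That call was lost without any 1 of the libraries other than IMQ+XYF replicate 2, with adjusted p-values of 0.0569 to 0.121. Dgat2, at 117 ± 23.5 CPM in IMQ+XYF, overlapped the controls.

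Across the 9 libraries the genes fell into different patterns, given here as descriptions of log2 CPM with libraries of different groups pooled. Elovl3 and Soat1 were the most alike pair (Pearson r = 0.912, n = 9), then Far2 and Soat1 (0.897), Scd1 and Far2 (0.880) and Elovl3 and Awat1 (0.823). Scd1 and Scd3 had an r of 0.797. Dgat2l6 ran apart, with an r of -0.370 with Scd3 and -0.305 with Scd1, and 0.678 with its neighbour Awat1. Against the mean of the other 9 genes, Far2 (0.933) and Soat1 (0.919) followed most closely, and Scd3 (0.428), Awat2 (0.431) and Dgat2l6 (0.095) least. These r share the libraries' depth and tissue makeup.

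**Figure D5:**
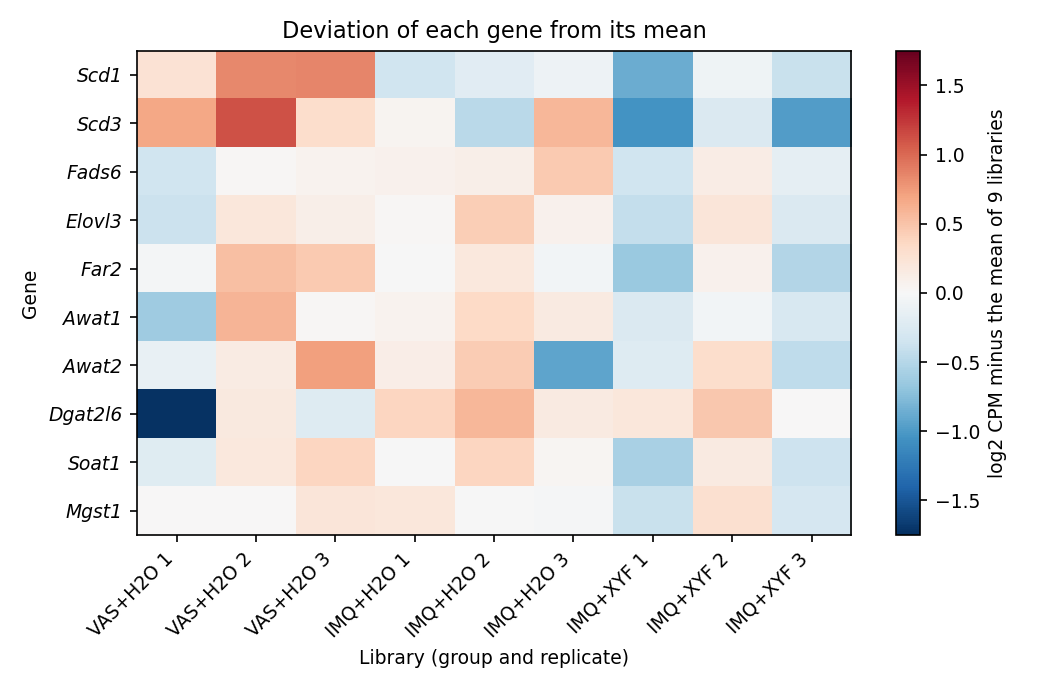
Deviation of each gene from its own mean over the 9 libraries, in log2 CPM, with genes in rows and libraries in columns (red above, blue below the mean). Scd1 is above its mean in all 3 VAS+H2O libraries and below it in the other 6, and the darkest cell is Dgat2l6 in VAS+H2O replicate 1, at -1.73.

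The mean of the centred log2 CPM of the 10 genes was -0.25, 0.38 and 0.29 in VAS+H2O, 0.05, 0.18 and 0.04 in IMQ+H2O, and -0.46, 0.13 and -0.37 in IMQ+XYF. Over 14519 genes compared, those most like this mean were Tlcd2 (r = 0.972), Rassf3 (0.969), Pnpla5 (0.964), Mgll (0.961) and Pxmp4 (0.958). Mgll, the monoacylglycerol lipase, measured 1080 ± 216 CPM in VAS+H2O, 960 ± 97.4 CPM in IMQ+H2O and 768 ± 191 CPM in IMQ+XYF. Pnpla5, a lipase of the patatin-like family, measured 34.4 ± 10.9, 33.9 ± 4.49 and 24.5 ± 5.15 CPM in the same order. Tlcd2, a membrane protein with a TLC domain, measured 47.4 ± 11.9, 42.4 ± 4.67 and 30.6 ± 7.37 CPM. None of the 5 genes was called in any comparison.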

How the data were processed

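RNA of mouse ear dermis was sequenced in 9 libraries. The authors' alignment used STAR and GRCm38 with Ensembl release 90 gene models, by their methods, and the submitters' processing notes name STAR 2.5. The deposited values are whole counts per gene, not normalised, and the counting program and its use of strand are not given in the sources used here. Counts were scaled by TMM and fitted with edgeR 4.0.16 in R 4.3.3 (filterByExpr, quasi-likelihood test, all 9 libraries, 1 coefficient per group, common BCV 0.296). A gene was called at an adjusted p of at most 0.05 and an absolute log2 fold change of at least 1. The study's own methods used DESeq2 with these same limits. Here DESeq2 1.42.0, other scalings, filters and sample sets were alternatives. Scripts were tested on simulated data.

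The genes and lists were chosen with earlier results of these data known. From each list, called genes were named, or, where there were none, the gene with the largest absolute change among those with a mean of at least 1 CPM. Fasn, Scd2, Dgat2, Pparg, Srebf1, Krt79, Mc5r and Adipoq were always named (1 further gene is not reported here), as were the 5 genes most like the mean of the 10. Gene positions came from GENCODE vM21 and promoters from RefSeq. No column was unmatched to a sample.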

Additional observations from a re-analysis of the deposited data

How the results depend on the processing

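None of the 10 genes was called in the imiquimod or XYF comparison under any of the 17 alternatives. In treated against control, 2 genes were called by DESeq2 (Scd1 and Scd3), 1 with upper-quartile factors (Scd1, adjusted p = 0.0497) and 1 with a minimum of 1 CPM in 3 libraries (Scd1, 0.0494). Leaving out 1 library at a time gave 0 to 2, the 2 without IMQ+XYF replicate 2. The counts over all genes moved more. For imiquimod they were 945 by DESeq2, 496 in a fit of the compared libraries alone, and 25 to 455 without 1 library. For XYF they were 223 by DESeq2, 0 with upper-quartile factors, 1 with a minimum of 1 CPM, 1 in the compared libraries alone and 0 to 4 without 1 library. For treated against control they were 701, 33 in the compared libraries alone, 453 with no fold limit and 12 to 592 without 1 library. The main counts were 223, 2 and 270.

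The replicate numbers showed no sign of pairing the libraries. Correlations of the deviations from group means were -0.183 to 0.125 for same-numbered libraries and -0.161 to 0.277 for differently numbered ones. With the replicate block the counts of called genes were 86 for imiquimod, 0 for XYF and 54 for treated against control.

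The sign of Mgst1 with imiquimod turned from -0.02 to 0.005 by DESeq2, 0.011 with RLE factors, 0.026 with upper-quartile factors, 0.024 with a minimum of 1 CPM and 0.012 in the compared libraries alone, and ran from -0.091 to 0.052 without 1 library. Without 1 library, log2 fold changes with imiquimod ran from -0.140 to 0.462 for Awat1, -0.628 to 0.017 for Awat2 and -0.137 to 0.146 for Soat1. With XYF, Awat2 ran from -0.368 to 0.239. In treated against control, Awat1 ran from -0.524 to 0.078, Fads6 from -0.159 to 0.063 and Elovl3 from -0.285 to 0.000. The cause was not tested. Scd1 kept its sign in every setting, at -1.06 to -0.79 with imiquimod and -1.26 to -0.91 in treated against control. With 3 libraries per group, changes of the size seen for most of these genes were within the spread of libraries.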

Other observations

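Apart from the hair follicle and cartilage genes, the lists of other cell types held no gene called by edgeR. By DESeq2, 1 gene each of the adipocyte, macrophage, mast cell and epidermis lists was called with imiquimod. With XYF it called 1 adipocyte, 1 mast cell, 2 epidermal and 2 skeletal muscle genes, and in treated against control 1 macrophage, 1 mast cell, 2 epidermal and 3 skeletal muscle genes. With imiquimod the genes of largest change in their lists included Fabp4, a fatty acid carrier of fat cells (321 ± 80.9 to 637 ± 96.0 CPM), Adgre1, the F4/80 macrophage antigen (17.7 ± 4.66 to 42.3 ± 12.0 CPM), Fcer1a of mast cells (1.30 ± 0.909 to 3.97 ± 1.40 CPM), Dsg1a of the epidermis (208 ± 89.3 to 60.7 ± 18.3 CPM) and Lum, a matrix proteoglycan of fibroblasts (607 ± 130 to 307 ± 112 CPM). With XYF they included Slc2a4, the insulin-responsive glucose carrier (26.2 ± 7.18 to 12.2 ± 3.28 CPM), Cd163 of macrophages (65.6 ± 22.1 to 39.0 ± 10.3 CPM), Ms4a2 of mast cells (9.20 ± 6.96 to 1.55 ± 0.412 CPM), Lum (307 ± 112 to 467 ± 86.4 CPM) and Col9a1 of cartilage (28.4 ± 9.35 to 104 ± 64.3 CPM). All 14 tested cartilage genes had a negative fitted change with imiquimod (median -1.88) and a positive one with XYF (median 1.503), and both medians rest on the same IMQ+H2O libraries.

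In treated against control, genes of largest change in lists with no called gene included Scd4 (2.21 ± 1.19 to 1.15 ± 0.236 CPM), Soat2 (1.28 ± 0.475 to 2.32 ± 0.951 CPM), Gata6 (6.35 ± 2.10 to 2.34 ± 0.834 CPM), Mc5r (8.36 ± 2.29 to 3.40 ± 1.25 CPM), Krt1 (154 ± 53.7 to 564 ± 461 CPM) and Myh4 (19.7 ± 14.0 to 4.58 ± 5.05 CPM). Of the hair follicle genes, 9 were called lower in that comparison, with Krt28 in place of Msx2.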
